A study of Mus musculus with 18 samples.

Results

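The regions described here are stretches of the mouse genome that lay in a Lamin B domain in cardiomyocytes (CM) but not in embryonic stem cells (ESC), on sequence that carried an H3K9me2 domain in both cell types. They were chosen by the deposited domain lists of all 4 combinations of cell type and antibody, on a 1 kb grid of chromosomes 1 to 19, as unbroken stretches of at least 20 kb. The rule found 482 such regions with 67.3 Mb, or 2.82% of the 2391 Mb between the first and last domains of these chromosomes. CM-only Lamin B of every H3K9me2 state formed 616 stretches of at least 20 kb, and 418 CM-only stretches held the 482 regions. Which regions are in Lamin B and H3K9me2 in each cell type is therefore fixed by the choice, and is a description with no test.

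The series holds 18 ChIP-seq libraries. Wild-type ESC, grown without feeders or serum in 2i medium with LIF, gave 2 Lamin B, 2 H3K9me2 and 1 input library. Wild-type CM, collected on day 10 after induction of embryoid bodies with VEGF, Activin A and BMP4 and later VEGF, bFGF and XAV, gave the same numbers. A separate ESC line with the genotype CMV-creERT; Hdac3f/f, in which the CMV promoter drives a tamoxifen-inducible Cre and both Hdac3 alleles are floxed, gave 2 Lamin B, 2 H3K9me2 and 1 input library without tamoxifen, and 2 Lamin B and 1 input library after 24 h with 1 µg/ml tamoxifen (Hdac3-/-). In the labels 6 libraries name the Lamin B list of ESC and 4 its H3K9me2 list, the Hdac3 line included. Whether all of them entered the lists is not stated there. Each list exists once. The data therefore hold no replicate error and no depth for any value below, no difference between cell types could be tested, and no marker of the labelled cell types could be checked.

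Lamin B is a filament protein of the nuclear lamina, the meshwork under the inner nuclear membrane. Chromatin that touches it forms long, gene-poor and mostly silent lamina-associated domains, of which some are common to all cell types and others are gained or lost as cells differentiate. H3K9me2, dimethylated lysine 9 of histone H3, is written mainly by the methyltransferases G9a and GLP and is enriched in the chromatin at the nuclear periphery. It also lies on chromatin away from the lamina, so a marked region can be outside a Lamin B domain in a given cell type.

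The gained regions had a median length of 98 kb, with quartiles of 54.3 and 165 kb, and the longest measured 1113 kb. Regions of at least 100 kb numbered 236 and held 79.1% of the sequence, whereas the 13 of at least 500 kb held 14.2% and the 10 longest 11.8%. The minimum length removed little sequence. Without it the rule gave 752 stretches with 68.9 Mb, and the 270 stretches under 20 kb held 2.27% of that. Just inside the limit were 18 regions of 20 to 25 kb, and just outside it 23 stretches of 15 to 19 kb. Such short pieces are about the size of a pair of bins of Lamin B or ESC H3K9me2, and of a single bin of CM H3K9me2. Domain edges fell on bins of 9 kb (ESC) and 11 kb (CM) for Lamin B and of 10 kb (ESC) and 20 kb (CM) for H3K9me2.

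**Figure D1:**
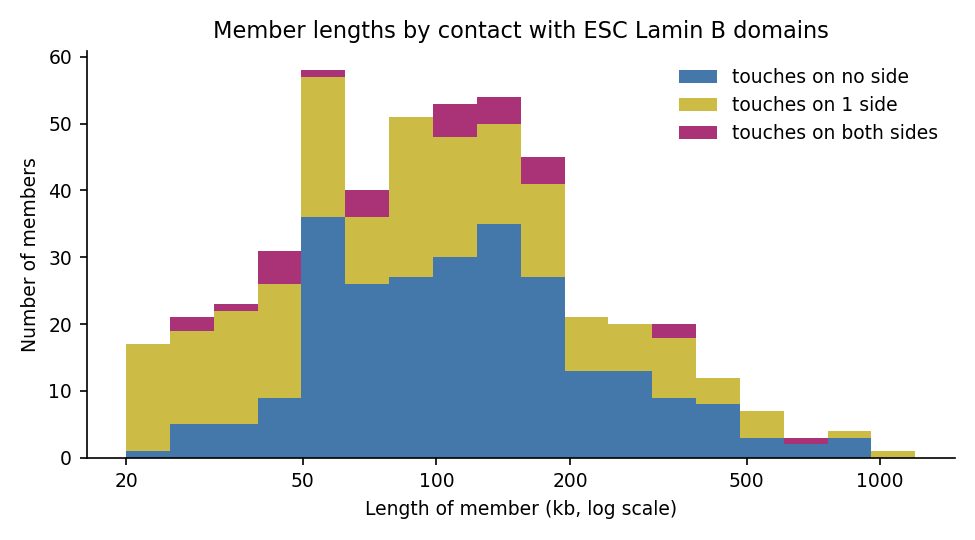
Number of gained regions by length (kb, log axis), coloured by whether an ESC Lamin B domain adjoins the region on no side, on 1 side or on both sides. The median is 98 kb, and the shortest bars, from 20 kb, are mostly regions that adjoin an ESC Lamin B domain on 1 side.

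The longest region, chr9:27291001-28404000 (mm9, 1113 kb), extended an ESC Lamin B domain that began at its right end. It lay inside a single ESC H3K9me2 domain of 1980 kb, of which only 20.0% was in Lamin B in ESC, and the CM Lamin B domain that holds it, 1914 kb long, was covered by ESC H3K9me2 over its whole length. The region chr8:15279001-16083000 (804 kb) had the same form, at the left side of a CM Lamin B domain of 3179 kb, and left 129 kb of its marked stretch outside CM Lamin B. A marked stretch here is an unbroken run of sequence outside ESC Lamin B with H3K9me2 in both cell types, so it is the room in which such a gain could take place. At chr15:29952001-30558000 (606 kb) the extension ran to the right and stopped 2 kb before the end of the marked stretch. The shorter chr12:13629001-14211000 (582 kb) also adjoined an ESC Lamin B domain on its right and left 109 kb of marked sequence uncovered.

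Other long regions lay far from any ESC Lamin B domain. The region chr12:28237001-29106000 (869 kb) was a whole CM Lamin B domain, 5040 kb from the nearest ESC Lamin B domain, and sat within an ESC H3K9me2 domain of 1040 kb. Likewise chr13:68794001-69553000 (759 kb) was a whole CM domain within 800 kb of ESC H3K9me2, 3463 kb from ESC Lamin B. At chr3:53680001-54329000 the CM Lamin B domain was 649 kb long and the ESC H3K9me2 domain 650 kb, so both lists drew nearly the same block, and ESC Lamin B was 1282 kb away. The next longest regions that were whole CM domains were chr4:103323001-103873000 (550 kb) and chr7:123882001-124421000 (539 kb), in ESC H3K9me2 domains of 990 and 660 kb.

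A pair of long regions lay near the distal end of a chromosome. The region chr10:128470001-129410000 (940 kb), the longest with no ESC Lamin B domain beside it, coincided with a whole ESC H3K9me2 domain of 940 kb and ended 566 kb before the last domain end of chromosome 10. It made up 62.4% of a CM Lamin B domain of 1507 kb. The region chr1:195570001-196430000 (860 kb) also equalled an ESC H3K9me2 domain, filled 99.0% of a CM Lamin B domain of 869 kb and ended 750 kb before the last domain end of chromosome 1. The longest region that closed a gap between ESC Lamin B domains was chr4:64773001-65502000 (729 kb), in a CM Lamin B domain of 16786 kb and an ESC H3K9me2 domain of 17200 kb. The rule itself requires H3K9me2 in ESC over the whole of such a gap.

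**Figure D2:**
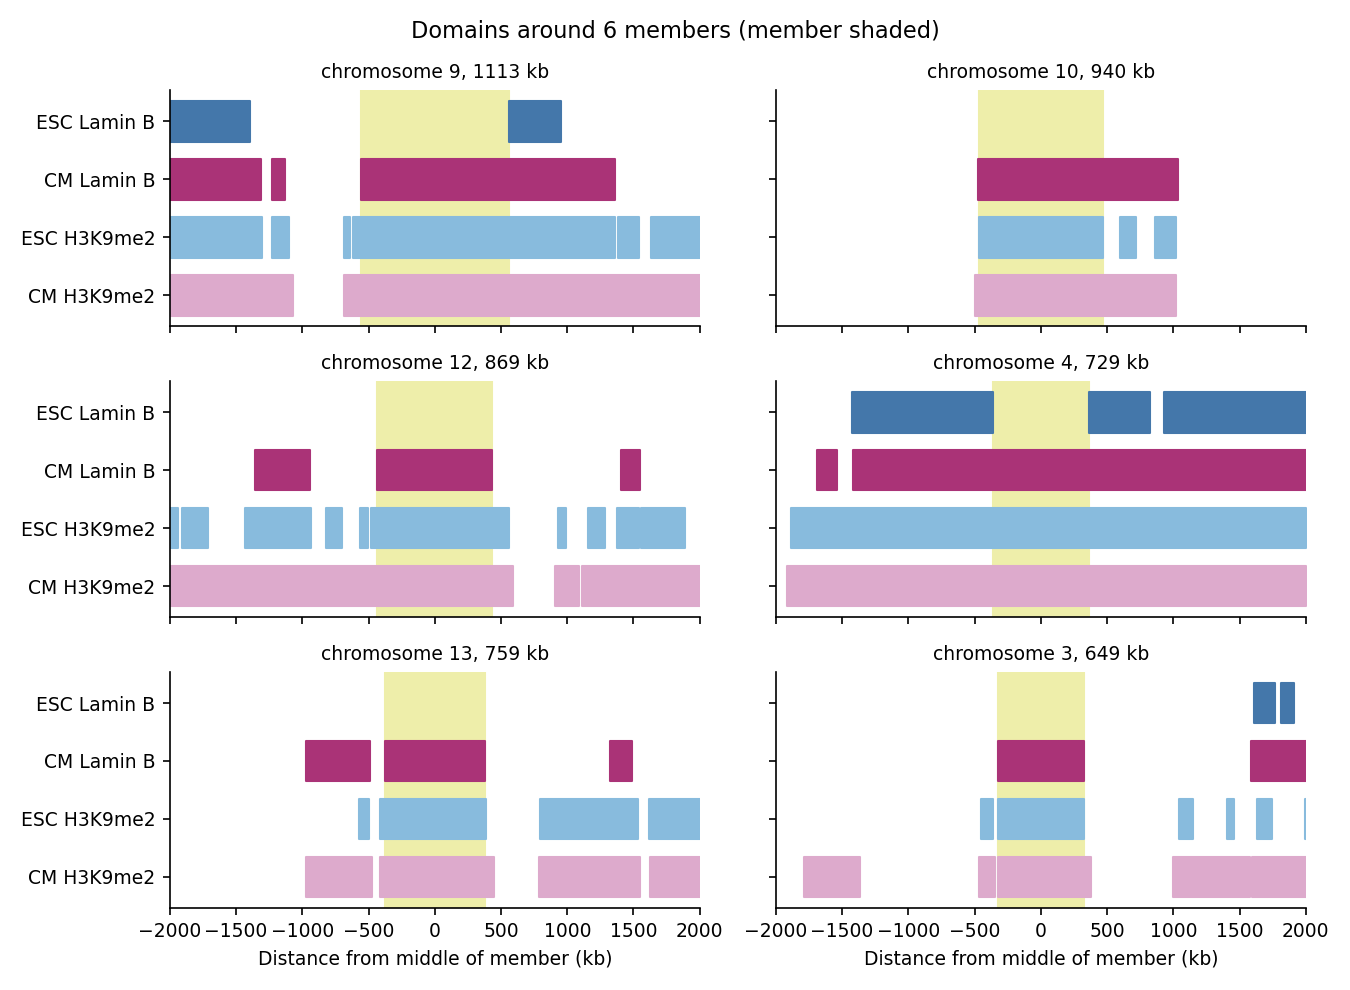
Domains of the 4 lists within 2000 kb of the middle of 6 gained regions (shaded), with distance in kb on the x axis and 1 row of bars per list. The region of 1113 kb on chromosome 9 joins an ESC Lamin B domain on its right, that of 729 kb on chromosome 4 fills a gap between ESC Lamin B domains, and the other 4 adjoin none. As the rule requires, H3K9me2 bars of both cell types cover every shaded block.

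By contact at their ends, most gained regions either stood apart from ESC Lamin B domains or extended such a domain. Standing apart means only that the next 1 kb on either side was not in ESC Lamin B. No ESC Lamin B domain adjoined 252 regions (52.3% of regions, 38.3 Mb), 1 adjoined 201 regions (41.7%, 25.2 Mb), and 29 regions (6.02%, 3.88 Mb) lay between a pair of them. Median lengths were 120, 82 and 99 kb. Of the 252 that stood apart, 172 were in CM Lamin B domains without any ESC Lamin B. The others lay in a CM domain that also held ESC Lamin B, so they can be inner pieces of an extension or of a filled gap. Which of the first 2 forms was more frequent depended on how domains were delimited: with domains at or above the median score of their list the shares were 39.9% apart and 58.3% beside 1 domain, and after merging across gaps under 50 kb they were 39.3% and 54.1%. The regions that stood apart were a median of 327 kb from the nearest ESC Lamin B domain, with quartiles of 83.8 and 1270 kb. Of these, 72 were within 100 kb and 75 were over 1 Mb away. A filled gap between ESC Lamin B domains counts among the 29 only where H3K9me2 of both cell types is unbroken across it. The CM-only stretch of 495 kb from chr3:119331001 ran between ESC Lamin B domains, but its regions are counted as apart or beside 1 domain. CM Lamin B therefore filled more gaps than these 29.

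The CM Lamin B domains that hold the regions were of 2 kinds. Of 826 CM Lamin B domains on these chromosomes, 359 held at least 1 region. In 218 of them part of the domain was Lamin B in ESC already, and these held 310 regions with 36.4 Mb. The other 141 had no ESC Lamin B over any of their length and held 172 regions with 30.9 Mb, or 45.9% of the sequence. These new domains were short, with a median of 187 kb and a longest of 1507 kb, against a median of 1029 kb for the 218. A longer domain overlaps ESC Lamin B more easily, so this difference in length follows in part from how the domains were divided. In 54 cases the region was the whole CM Lamin B domain, so that a new domain lay entirely on sequence with H3K9me2 in both cell types. These 54 had a median length of 176 kb and ranged from 88 to 869 kb.

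The ends of the regions showed which list changed there. Of 964 ends, 334 (34.6%) lay where ESC H3K9me2 ended while CM Lamin B and CM H3K9me2 both went on. H3K9me2 was called in bins of 10 kb in ESC and 20 kb in CM. How far this difference in bins shaped these ends was not tested. At 312 ends (32.4%) CM Lamin B ended while H3K9me2 of both cell types went on, and at 259 (26.9%) an ESC Lamin B domain began. CM Lamin B went on past the end of CM H3K9me2 at 30 ends where ESC H3K9me2 continued and at 20 where it did not. Only 9 ends had CM Lamin B and H3K9me2 of at least 1 cell type stopping at the same kb, and with lists on bins of different widths an exact match is rare by construction. Most CM-only stretches with a region held a single one, 367 of 418. In the other 51 lay 2 to 5 regions, and the 64 gaps between them had a median of 30 kb, with 45 of 50 kb or less. The regions made up 79.2% of the 85.0 Mb in these 418 stretches.

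Where a region extended an ESC Lamin B domain, its outer end lay most often inside H3K9me2. Of the 201 regions with an ESC Lamin B domain on 1 side, 123 (61.2%) ended within H3K9me2 of both cell types at their outer end. In ESC the marked stretch beyond the Lamin B edge had a median of 211 kb at these 123 places. The region took a median of 69.6% of it (quartiles 39.3 and 90.4%, lowest 4.44%), and a median of 47 kb of the stretch lay outside the region (quartiles 8 and 163 kb). These places were chosen for a gain of at least 20 kb, so the shares describe them alone. Over all 364 marked stretches of at least 20 kb with ESC Lamin B on 1 side, gained or not, CM Lamin B covered 47.2% of the sequence. Another 63 (31.3%) ended where ESC H3K9me2 stopped and CM Lamin B and H3K9me2 continued. Over all 482 regions, 221 (45.9%, 24.9 Mb) filled their marked stretch from end to end.

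The ESC H3K9me2 domains under the regions were longer than most of that list. They numbered 428 of 2431, with a median length of 305 kb against 140 kb for the list, and 192 of them were already partly in Lamin B in ESC. A longer domain has more room to hold a region of at least 20 kb, so this difference is no finding about the marks. The other 236 had no ESC Lamin B, and their median length was 120 kb. Of these, 109 lay wholly inside CM Lamin B, and the median share in CM Lamin B was 97.9% (quartiles 79.8 and 100%). The 236 were chosen for holding a gained region, so a high share is partly built in. In 101 cases the region was a whole ESC H3K9me2 domain. In CM the regions lay in 314 of 1140 H3K9me2 domains with a median length of 970 kb, and a single region was a whole CM H3K9me2 domain. The share of regions whose H3K9me2 domain also held ESC Lamin B sequence was 50.2% for ESC domains and 71.2% for CM domains, which were called in wider bins and were longer.

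Most H3K9me2 domains outside the lamina in ESC stayed outside it in CM. Of 1299 ESC H3K9me2 domains without any ESC Lamin B, 268 (20.6%) had some CM Lamin B, 242 (18.6%) had it over at least 50% of their length and 125 (9.62%) were inside it entirely. The share with any CM Lamin B was 22.9% for the 48 domains under 50 kb, 18.6% for domains of 50 to under 100 kb, 17.9% for 100 to under 200 kb, 25.2% for 200 to under 400 kb and 39.5% for 400 kb or more. The share at 50% or more of the length was closer across these lengths, at 18.75, 17.9, 17.2, 22.7 and 23.5%.

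Sequence that carried H3K9me2 in both cell types came into CM Lamin B far more often than sequence without the mark. Outside ESC Lamin B, 222 Mb had H3K9me2 in both cell types, and CM Lamin B covered 31.0% of it. The share was 28.3% of 97.7 Mb with H3K9me2 in CM only, 7.05% of 47.3 Mb with H3K9me2 in ESC only and 1.42% of 1011 Mb with H3K9me2 in neither, against 8.29% over all sequence outside ESC Lamin B. In amount, the constantly marked sequence gave 60.3% of all CM-only Lamin B from 16.1% of the sequence outside ESC Lamin B. The regions of at least 20 kb alone made up 58.9% of CM-only Lamin B. These shares come from the lists that chose the regions and have no test. The gap between the first 2 states was small, and when only domains with at least their list's median score were kept, both states had 33.7%. The order of these states also turned along the chromosome, with 27.6% (both) and 28.0% (CM only) at 60 to 80 Mb from the first domain start and 18.6 and 23.0% beyond 80 Mb.

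The share gained fell with distance from the ESC lamina. Within 50 kb of an ESC Lamin B domain, CM Lamin B covered 57.1% of the 24.5 Mb with H3K9me2 in both cell types. It covered 49.0% at 50 to 100 kb, 42.5% at 100 to 200 kb, 33.6% at 200 to 400 kb and 23.9% at 400 to 800 kb. Farther out the share levelled, at 20.4% for 800 to 1600 kb and 19.8% beyond 1600 kb, where 68.5 Mb of marked sequence lay. Sequence with H3K9me2 in neither cell type fell from 11.5% within 50 kb to 0.237% at 800 to 1600 kb, and stood at 0.875% beyond. At every distance sequence with H3K9me2 in both cell types was above that with neither, and up to 1600 kb also above that with H3K9me2 in CM only, which beyond 1600 kb had 23.3%.

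**Figure D3:**
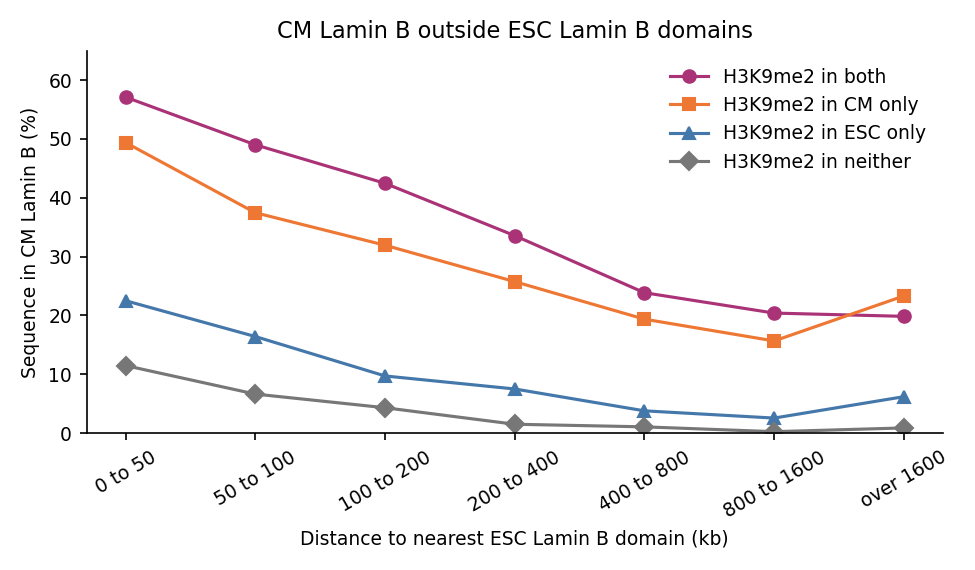
Percent of sequence outside ESC Lamin B that lies in CM Lamin B, by distance to the nearest ESC Lamin B domain (kb), with 1 line per H3K9me2 state. The line for H3K9me2 in both cell types falls from 57.1% within 50 kb to 19.8% beyond 1600 kb, and the line for neither stays at or below 11.5%.

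Contact with an ESC Lamin B domain went with gain at the level of whole marked stretches too. There were 1275 marked stretches of at least 20 kb, of which 221 lay entirely in CM Lamin B, 311 in part and 743 not at all. Of the 863 stretches with no ESC Lamin B domain beside them, 72.2% had no CM Lamin B and 13.2% were taken whole. Of the 364 with an ESC Lamin B domain on 1 side, 31.3% had none and 21.4% were taken whole. Of the 48 between ESC Lamin B domains, 6 (12.5%) had none and 29 (60.4%) were taken whole. Longer stretches were taken whole less often, from 29.6% of those of 20 to under 50 kb to 3.57% of those of 400 kb or more. A longer stretch must be covered over more sequence to count as whole, so this fall is partly built in. Among the stretches with ESC Lamin B on 1 side, 25.5% of those of 20 to under 50 kb and 0% of the 31 of at least 400 kb were filled, while 12.9% of these 31 had no CM Lamin B. By sequence, the share gained changed less with length, with 44.4% for stretches of 20 to under 50 kb, 33.8% for 50 to under 100 kb, 27.7% for 100 to under 200 kb and 30.7% for 400 kb or more.

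**Figure D4:**
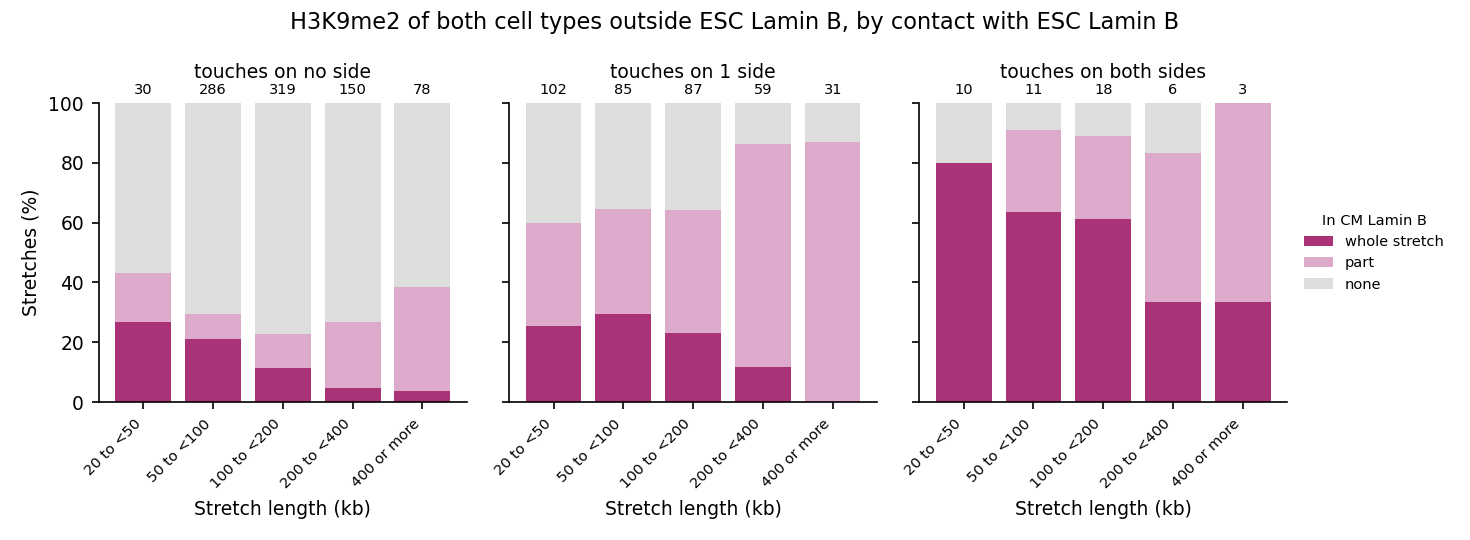
Stretches with H3K9me2 in both cell types and no ESC Lamin B, by length (kb) and by how many sides adjoin an ESC Lamin B domain; bars split them into whole, part or none in CM Lamin B (%), with the number of stretches above each bar. Stretches between ESC Lamin B domains were taken whole in 29 of 48 cases, against 114 of 863 with none beside them.

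The gained regions were concentrated toward the start of the chromosomes, which in the mouse is the end that carries the centromere. CM Lamin B gain as a whole lay the same way, so this was not particular to these regions. Over all sequence outside ESC Lamin B, whatever its H3K9me2 state, CM Lamin B covered 18.1% over 0 to 5 Mb. It covered 20.4% over 5 to 10 Mb and 4.88% beyond 80 Mb. The first 10 Mb of the domain span of the 19 chromosomes made up 7.95% of the span and held 82 of the 482 regions (17.0%) and 15.6% of their sequence. CM Lamin B covered 57.3% of the 18.7 Mb of marked sequence there and 28.6% of the 203 Mb in the rest. From the start the share was 56.8% over 0 to 5 Mb, 57.7% over 5 to 10 Mb and 54.7% over 10 to 20 Mb. Within this, the first 1 Mb alone had 24.9%, from 1.67 Mb of marked sequence. The share was then 35.9% over 20 to 30 Mb, 29.6% over 30 to 40 Mb, 32.0% over 40 to 60 Mb, 27.6% over 60 to 80 Mb and 18.6% beyond 80 Mb. At the other end of the spans it was 39.2% over the last 5 Mb and 19.3% over the last 10 Mb. Lengths of the regions were alike, with a median of 100.5 kb in the first 10 Mb and 96 kb elsewhere. These windows were chosen after the files had been opened, and the difference has no test.

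The higher share near the chromosome start was seen on 16 of 19 chromosomes. It was lower there on chromosomes 3, 10 and 14. The first 10 Mb of chromosomes 3 and 9 held only 0.009 and 0.04 Mb of marked sequence, and of the 17 chromosomes with at least 0.3 Mb the share was higher on 15. Chromosome 12 had 85.3% in the first 10 Mb and 38.5% in the rest, chromosome 18 had 87.6% and 25.5%, and chromosome 19 had 84.8% and 31.7%. Chromosome 10 went the other way, with 4.13% and 36.6%. The difference was present at each distance from ESC Lamin B. Within 50 kb the first 10 Mb had 82.5% and the rest 54.7%, at 50 to 200 kb the values were 64.2 and 42.9%, at 200 to 800 kb 52.2 and 26.0%, and beyond 800 kb 48.6 and 18.1%. Sequence in other states also had higher shares near the start. With H3K9me2 in CM only the share was 39.9% over 0 to 5 Mb and 23.0% beyond 80 Mb, and with H3K9me2 in neither 2.38 and 1.02%. With H3K9me2 in ESC only it was 13.3 and 7.65%, with 29.5% over 5 to 10 Mb. Along the way these did not fall steadily either, with 28.0% for CM only over 60 to 80 Mb and 2.62% for neither over 30 to 40 Mb. How well reads map near the centromere was not analysed here.

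**Figure D5:**
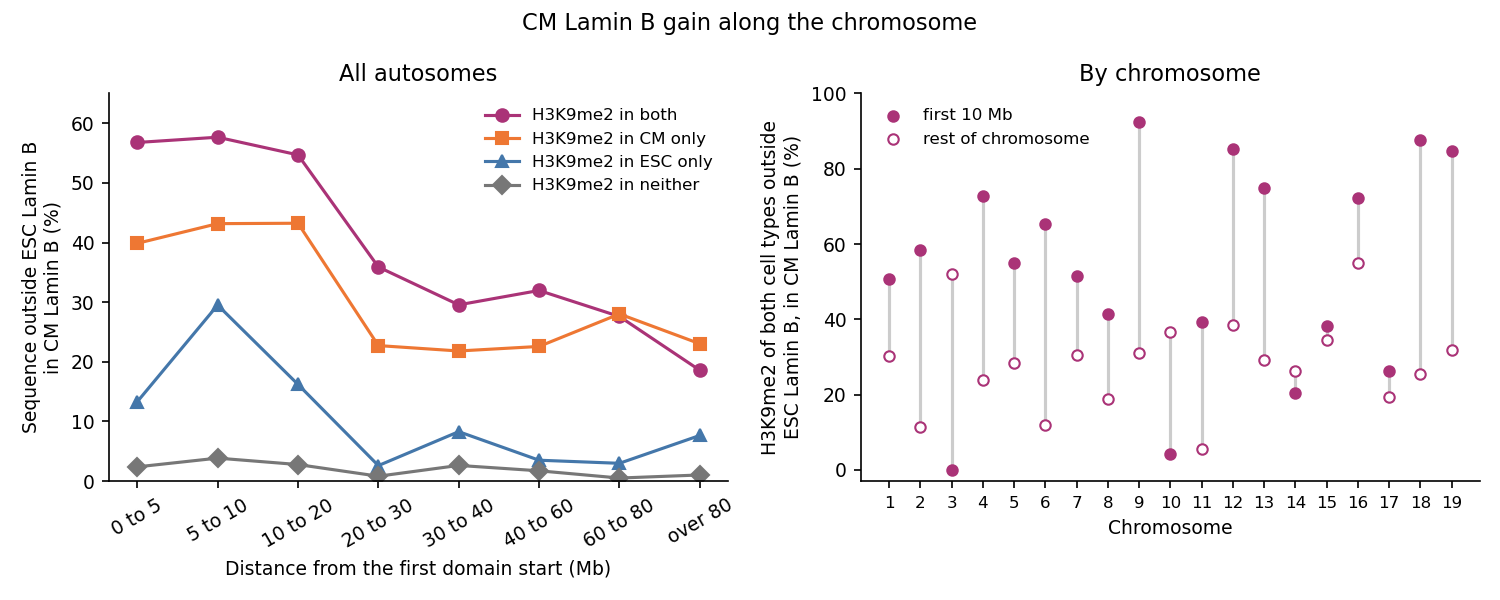
Left, percent of sequence outside ESC Lamin B that lies in CM Lamin B by distance from the first domain start of the chromosome (Mb), with 1 line per H3K9me2 state. Right, the same percent for sequence with H3K9me2 in both cell types in the first 10 Mb (filled) and in the rest (open) of each chromosome; the filled point is higher on 16 of 19 chromosomes.

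Chromosomes differed widely in how much they contributed. The number of regions ranged from 6 on chromosome 11 to 47 on chromosome 7, with a median of 25, and their sequence from 0.664 Mb on chromosome 11 to 7.06 Mb on chromosome 12. As a share of the span, chromosome 12 led with 5.97%, followed by chromosomes 3 (4.13%), 19 (4.10%) and 18 (4.02%), against a mean of 2.91 ± 1.30% (SD over 19 chromosomes, which are not replicates) and 0.578% on chromosome 11. Relative to the marked sequence outside ESC Lamin B, the share gained was highest on chromosomes 16 (58.6%) and 3 (52.1%) and lowest on 11 (8.03%), although chromosome 11 had 8.58 Mb of such sequence and chromosome 16 only 5.49 Mb. The part of CM-only Lamin B that the regions made up ran from 40.4% on chromosome 16 and 40.6% on chromosome 3 to 84.6% on chromosome 12 and 90.2% on chromosome 11. Chromosome 11 had only 0.736 Mb of CM-only Lamin B of any H3K9me2 state, against 8.34 Mb on chromosome 12. Its 90.2% therefore rests on 6 regions.

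The score that the authors gave each domain was not used by the rule. It grows with length, so it was compared per 100 kb and within classes of length, within a list. From 100 kb upward, new CM Lamin B domains that hold a region had lower median scores per 100 kb than CM domains of like length of which at least 50% was Lamin B in ESC. For 100 to under 200 kb the medians were 3.11 (65 new domains) and 3.52 (91 domains), for 200 to under 400 kb 2.60 (43) and 3.57 (116), and for 400 to under 1000 kb 2.62 (21) and 4.36 (145). The interquartile ranges overlapped in each class, with 1.90 to 3.59 and 3.44 to 5.32 in the longest. At 50 to under 100 kb the medians were 4.61 (11) and 4.62 (10).

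The median ESC H3K9me2 score per 100 kb was higher in gained domains than in those not gained, except at 100 to under 200 kb. Outside the class of 200 to under 400 kb the medians lay close together. Gained here means ESC H3K9me2 domains without ESC Lamin B and with at least 50% in CM Lamin B. Their median scores per 100 kb were 3.32, 2.71, 3.36 and 3.13 in the 4 classes of length from 50 to under 1000 kb (98, 79, 37 and 17 domains). Domains with neither ESC nor CM Lamin B had 3.15, 2.79, 2.87 and 3.02 (446, 377, 122 and 46 domains), and the interquartile ranges overlapped throughout. ESC H3K9me2 domains with at least 50% in ESC Lamin B had 3.40, 3.39, 3.43 and 3.35. The labels and headers do not define the scale of the score, and the domains are not replicates, so the values are descriptions.

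Set beside the other CM-only Lamin B sequence, the regions on constant H3K9me2 were more numerous and had the longer median. There were 272 CM-only Lamin B stretches of at least 20 kb on H3K9me2 of CM only (25.9 Mb, median 50 kb), 102 on H3K9me2 of neither (13.2 Mb, median 77 kb) and 39 on H3K9me2 of ESC only (2.94 Mb, median 60 kb), against 482 and 98 kb. The longest of the first 2 kinds, at 3177 and 2059 kb, exceeded the 1113 kb of the longest region here. ESC Lamin B adjoined none of the sides in 67.3, 76.5 and 92.3% of these stretches, against 52.3% of the regions here. Pieces of different kinds can come from a single run of CM-only Lamin B, cut where H3K9me2 changes. Contact and length therefore follow in part from this cutting. The 973 stretches of at least 20 kb with H3K9me2 in both cell types and Lamin B in neither had a median of 110 kb. They include the uncovered parts of marked stretches that CM Lamin B took in part. Those with no ESC Lamin B beside them were a median of 651 kb from it, against 327 kb for the gained regions that stood apart. No test of these differences was possible with 1 list per cell type and antibody.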

How the data were processed

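The data are ChIP-seq domains of Lamin B and H3K9me2. The authors deposited 1 list of enriched domains per cell type and antibody (771 ESC and 933 CM Lamin B, 2680 ESC and 1240 CM H3K9me2 domains). STAR, Picard and deepTools and the build mm9 are named in the submitters' processing notes, without versions. Per the file headers, domains were called with g 10, bins set automatically and an FDR of 5%. As for the domain caller, its name was not given in the sources used here. Each domain has a deposited score, which is the authors' own value. Depth and replicate spread are unknown.

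Domains were placed on a 1 kb grid with Python 3.11.15, numpy 2.4.6 and pandas 2.3.3. Plots used matplotlib 3.10.9. Wilson intervals from scipy 1.17.1 judged whether a share moved under an alternative. They count 1 kb bins or regions as independent, which they are not, so they measure no replicate error. Groups come from the sample titles. The code was tested on simulated lists with planted regions. Regions named in the text are the 10 longest, the longest of each form of contact and the 5 longest that are whole CM Lamin B domains. The regions and comparisons were chosen with earlier results of these data known. Alternatives changed the minimum length, the score threshold, merging, domain ends and the definition of contact. All values are descriptions, and spans run between the first and last domains of a chromosome. Input libraries, and genes and sequences in the regions, were not analysed here, since no reference of build mm9 was used.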

Additional observations from a re-analysis of the deposited data

How the results depend on the processing

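Leaving out chromosome 3, and the windows by position, were chosen after seeing the data. Of 65 values of the main results under 9 alternatives, 35 stayed within 1.5 times the reported value (counts, Mb and lengths) or within its Wilson interval (shares), which is narrow for shares of sequence, and 30 did not. A minimum length of 50 kb gave 56.1% of CM-only Lamin B, with 59.6% of regions apart from ESC Lamin B and 34.96% beside 1 domain. A minimum of 100 kb gave, by construction, fewer and longer regions (236, median 165 kb) with 46.6% of CM-only Lamin B, and the shares apart and beside 1 domain were 60.2 and 33.9%. Domains at or above the 25th percentile of the score gave 57.2% of CM-only Lamin B, 31.8% of constant H3K9me2 outside ESC Lamin B gained, and 47.4, 49.6 and 3.03% of regions beside 0, 1 and 2 domains. At or above the median score there were 228 regions with a median of 184 kb, 55.7%, 33.7%, and 39.9, 58.3 and 1.75%. Merging across gaps under 50 kb gave 60.5% of CM-only Lamin B, and 39.3 and 54.1% beside 0 and 1 domain. The order of these 2 forms therefore turned under both score thresholds and merging, and the cause was not tested. Trimming 20 kb from each domain end gave 53.1% and 31.7% gained, adding 20 kb to ESC Lamin B 60.3% and 29.5%, and leaving out chromosome 3 61.9% and 29.7%. Counting ESC Lamin B within 20 kb as contact left 47.7% apart. In 6 of 6 alternatives the share gained over all chromosomes together kept its order, from H3K9me2 in both through CM only and ESC only to neither. At or above the median score, however, the first 2 states were all but equal (33.70 and 33.66%), so their order there carries no weight. The share of constant H3K9me2 gained was higher in the first 10 Mb (56.0 to 59.3%) than in the rest (27.0 to 31.7%). No paired analysis was possible because no list gives values by library, and for the same reason no replicate was left out.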

Other observations

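The sex chromosomes were outside the rule. By the same criteria chromosome X held 56 stretches of at least 20 kb with 5.40 Mb (3.30% of its span), a median of 74 kb and a longest stretch of 400 kb at chrX:5220001-5620000 (mm9). CM Lamin B covered 74.1% of the 7.52 Mb of X outside ESC Lamin B with H3K9me2 in both cell types, above the 58.6% of chromosome 16, the highest autosome. These stretches made up 37.8% of CM-only Lamin B on X, below the 40.4% of the lowest autosome. Chromosome Y gave 5 stretches with 0.801 Mb over a span of 2.90 Mb.

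Total Lamin B coverage also differed more near the chromosome start. Over 0 to 5 Mb of the spans it was 42.4% in ESC and 52.3% in CM, and beyond 80 Mb 38.9 and 40.0%. In the last 1 Mb of the 19 spans lay 1.72 Mb of marked sequence, of which 67.3% was in CM Lamin B, against 19.3% of the 16.2 Mb in the last 10 Mb. The right ends of the regions of 860 and 940 kb on chromosomes 1 and 10 reach into that last 1 Mb, and 3 shorter regions of these chromosomes are centred there.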
